A study of Mus musculus with 6 samples.

Results

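The clustered protocadherins are cell adhesion proteins encoded by the alpha, beta and gamma gene clusters, which lie side by side on mouse chromosome 18. Members were all rows of the deposited gene table whose GENCODE M21 symbol names a Pcdha, Pcdhb, Pcdhga, Pcdhgb or Pcdhgc gene. This gave 58 of 51912 rows, of which 14 belong to the alpha, 22 to the beta and 22 to the gamma cluster. Messenger RNA came from R1 mouse embryonic stem cells, an established line, first kept naive in 2iLIF and then given FGF2 at 100 ng/ml in N2B27, a serum-free medium. The 2 groups were 24 h and 48 h of this treatment, with 3 libraries each, and no agent or allele besides these is named in the labels. Libraries without FGF2 were not analysed here, so FGF2, the new medium and time in culture cannot be told apart. A single cell line was used and the labels do not say whether replicates were separate cultures, so p-values measure the spread between these libraries, which may be technical.

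In the alpha and gamma clusters each gene begins with its own large variable exon, which has its own promoter and encodes the extracellular cadherin repeats, the membrane span and part of the cytoplasmic tail. This exon is spliced to a set of constant exons that all genes of that cluster share. Beta genes consist of a variable exon and have no constant exons. In neurons CTCF and cohesin act in the choice of promoters, so that single cells express different combinations, whose proteins bind like with like between cells. DNA methylation by Dnmt3b and silencing by Smchd1 are known to hold promoters of these clusters off. The C-type genes, such as Pcdhgc3, Pcdhgc4 and Pcdhgc5, are less bound by this random choice than the A and B types.

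The annotation was set beside the counts first, because shared exons decide how well a member can be counted. In GENCODE M21 (GRCm38) the alpha cluster spans chr18:36930184-37187661, the beta cluster chr18:37264938-37524479 and the gamma cluster chr18:37661793-37841873, all on the plus strand. All 14 alpha members shared 2860 exonic bases, and all 22 gamma members shared 2116. Among the beta members, 2 shared exonic bases with another member (Pcdhb21 and Pcdhb22, 455 bases). Runs of 50 bases found in no other gene's transcripts made up a median of 39.9% of an alpha member, 55.6% of a gamma member and 95.5% of a beta member. The lowest gamma value was 34.7%, for Pcdhga4, of whose runs 65.3% also lay in other members. In the alpha cluster Pcdha4 was lowest, with 9.94%, and 40.6% of its runs also lay in transcripts of genes that are not members.

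Estimated counts that were not whole numbers (more than 0.005 from one in at least 1 library) occurred in 31 members. These were 7 alpha, 2 beta and all 22 gamma members. In the series, 5354 of 26300 genes with a count (20.4%) were fractional. Every alpha member with any count was fractional, whereas 17 of the 19 beta members with a count held whole numbers in all libraries. Summed over the 22 beta members, the estimated counts were whole in all 6 libraries. Summed over the alpha and gamma members together with the 5 other same-strand genes that share their exons, they lay within 0.03 of a whole number in all 6. The fractional parts thus cancelled within this group of 41 genes. The gamma members alone summed to within 0.05 of a whole number in 1 library, and the alpha members alone in 5. A sum over a cluster does not depend on how reads are divided among its members, whereas the level and fold change of a single gamma member are estimates that do. The alpha and gamma sums still depend on how reads are divided with the non-member genes that share exons. Reads of the variable exons alone cannot be read from counts per gene.

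**Figure D1:**
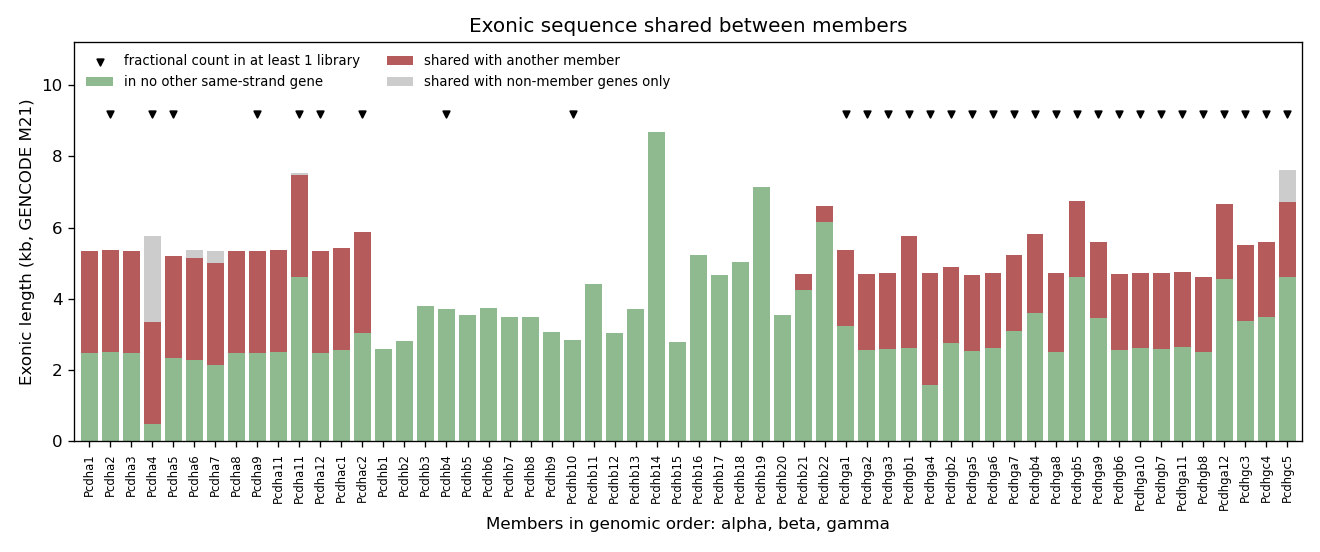
Exonic length of each of the 58 members in kb, in genomic order, split into bases in no other same-strand gene (green), bases shared with another member (red) and bases shared with non-member genes only (grey). Triangles mark members with a fractional count in at least 1 library: all 22 gamma, 7 alpha and 2 beta members.

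The gamma cluster held nearly all counts of the clustered protocadherins, and its summed level was slightly lower at 48 h. In CPM, the usual depth-scaled count with library sizes adjusted by TMM, the gamma sum was 123.9, 125.5 and 121.0 in the 24 h libraries and 113.0, 105.8 and 108.3 in the 48 h libraries. Every 48 h library was below every 24 h library, and the means were 123.5 ± 2.26 and 109.0 ± 3.64 (SD, n = 3), a log2 ratio of -0.18. With library size as the only scaling the ratio was -0.24. The beta sum was 1.70, 1.27 and 1.70 CPM at 24 h and 1.38, 1.42 and 1.04 CPM at 48 h, so the times overlapped (log2 ratio -0.28). The alpha sum was 0.901, 0.508 and 0.551 CPM at 24 h and 0.736, 0.411 and 0.406 CPM at 48 h, again with overlap (log2 ratio -0.34, which was -0.03 without 24 h replicate 1 and -0.68 without 48 h replicate 1). These sums rested on 9 to 18 estimated counts per library for alpha, 23 to 40 for beta and 2315 to 2856 for gamma. No test was made on the sums. In bulk RNA, fewer cells expressing a gene and less RNA per cell cannot be told apart.

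**Figure D2:**
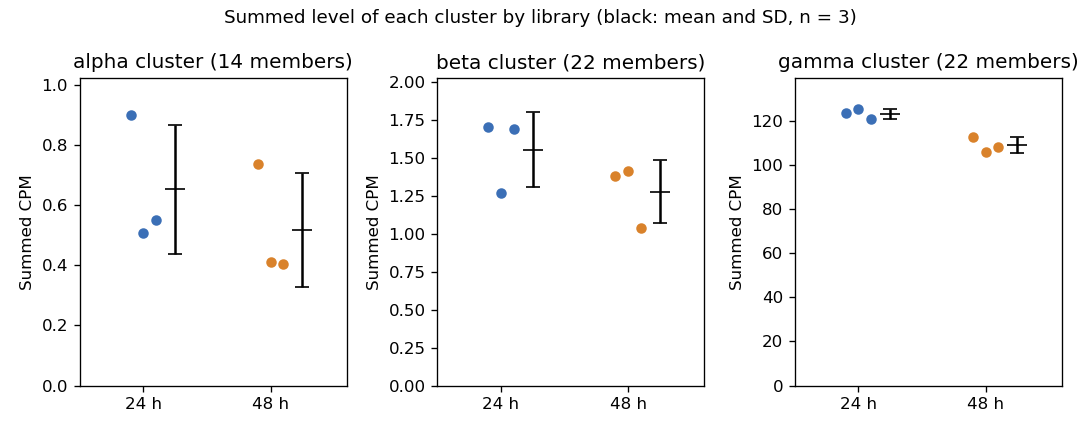
Summed CPM of the alpha, beta and gamma clusters in each library, with 24 h in blue and 48 h in orange, and the mean and SD of 3 libraries in black. The gamma sums lie between 121.0 and 125.5 at 24 h and between 105.8 and 113.0 at 48 h, while the alpha and beta sums stay under 2 CPM and overlap.

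Of the 58 members, 21 had enough counts to be tested (20 gamma members and Pcdhb22). By edgeR's quasi-likelihood test 1 was called higher at 48 h and 8 lower, with 0.05 as the limit for the adjusted p. Among all 14889 genes tested, 30.9% were higher and 31.9% lower, 62.8% in either direction. The 9 called members are 42.9% of those tested, below that background, and all 9 lie in the gamma cluster. The values of the 2 times did not overlap for 1 tested member that was higher and 7 that were lower. Over all genes tested this held for 32.7% and 34.2%, 66.9% in all. The median log2 fold change (48 h over 24 h) was -0.32 for the tested members and -0.01 for all genes tested. Members that pass a filter on low counts are not a fair sample of the clusters, so these figures describe the tested members alone.

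The 2 most abundant members, Pcdhgc4 and Pcdhgc3, moved in opposite directions. Pcdhgc4 (ENSMUSG00000023036), a C-type gamma protocadherin linked to the survival of neurons, was at 40.7, 38.6 and 36.0 CPM at 24 h and 50.8, 44.2 and 47.9 CPM at 48 h. Each 48 h library was above each 24 h library. Its log2 fold change was 0.31 ± 0.05 (standard error; adjusted p = 9.45e-05). Pcdhgc3 (ENSMUSG00000102918), the most widely expressed C-type gene, which binds the WNT inhibitor Axin1, was at 24.7, 25.7 and 24.5 CPM at 24 h and 14.8, 14.6 and 14.6 CPM at 48 h. The gap between the times was far wider than the spread within either. Its log2 fold change was -0.77 ± 0.06 (standard error; adjusted p = 8.69e-09). Both calls held in all 15 alternatives tried, where the adjusted p reached at most 0.00096 for Pcdhgc4 and 3.72e-07 for Pcdhgc3. All 15 started from the same estimated counts, so none varied how shared reads were divided among the members. The antisense gene BC037039 overlaps exons of Pcdhgc3 and had 0 to 8 counts per library. No opposite-strand exon overlaps Pcdhgc4.

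The share of the gamma counts assigned to Pcdhgc4 was 32.8%, 30.8% and 29.8% at 24 h and 45.0%, 41.8% and 44.2% at 48 h. The share of Pcdhgc3 was 19.9%, 20.5% and 20.3% at 24 h and 13.1%, 13.8% and 13.5% at 48 h. Neither share overlapped between the times. The ratio of Pcdhgc4 to Pcdhgc3 counts went from 1.54 ± 0.09 to 3.25 ± 0.20 (SD, n = 3). The 3 C-type genes together stayed near one level, at 64.1 ± 2.84 CPM and 63.0 ± 3.31 CPM (SD, n = 3), with overlapping values. Pcdhgc5, the last C-type gene, had 8.13 to 19.5 estimated counts per library and was not called (log2 fold change 0.24 ± 0.37, adjusted p = 0.594). The shares and the ratio were chosen after the values were seen and were not tested.

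**Figure D3:**
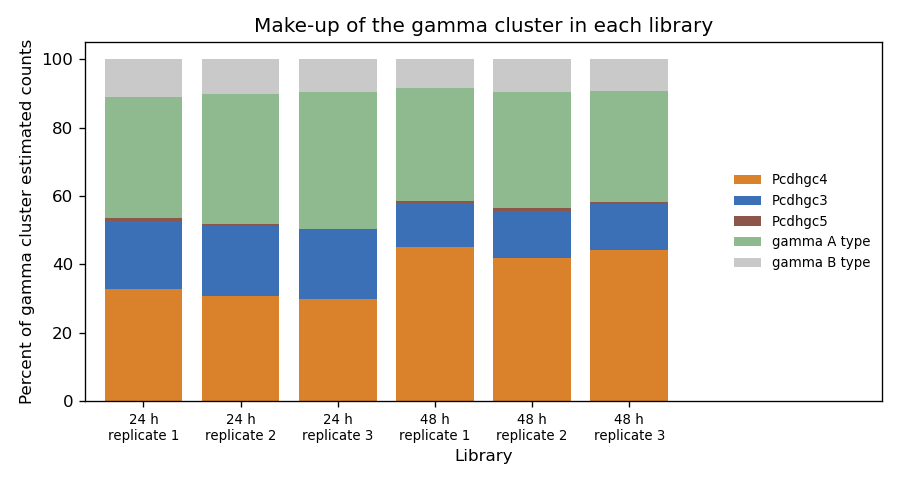
Share of the gamma cluster's estimated counts, in percent, assigned to Pcdhgc4, Pcdhgc3, Pcdhgc5, the 12 A-type and the 7 B-type genes in each library. Pcdhgc4 takes 29.8% to 32.8% at 24 h and 41.8% to 45.0% at 48 h, and Pcdhgc3 takes 19.9% to 20.5% and 13.1% to 13.8%.

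The A-type and B-type gamma genes were lower at 48 h as sums. Unlike the sum over the cluster, sums by type, that of the C-type genes included, depend on how shared reads were divided between types. The 12 A-type genes summed to 46.9 ± 2.40 CPM at 24 h and 36.1 ± 0.94 CPM at 48 h (SD, n = 3), a log2 ratio of -0.38. The 7 B-type genes summed to 12.5 ± 0.97 CPM and 9.90 ± 0.31 CPM, a log2 ratio of -0.34. In both types every 48 h library was below every 24 h library. Of the 11 A-type genes tested, 5 fell (Pcdhga1, Pcdhga4, Pcdhga5, Pcdhga10 and Pcdhga12) and 6 were not called. Of the 6 B-type genes tested, 2 fell (Pcdhgb2 and Pcdhgb7) and 4 were not called. The called genes are 45.5% of the tested A-type and 33.3% of the tested B-type genes. Over all genes tested 31.9% fell and 62.8% were called in either direction. These genes encode the variable adhesion proteins of the cluster, which differ in their extracellular cadherin repeats.

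Pcdhga4 (ENSMUSG00000103677) showed the largest fall among tested members. It was also the gamma member with the lowest share of runs of 50 bases found in no other gene, 34.7%. It was at 2.08, 1.44 and 3.21 CPM at 24 h and 1.01, 1.11 and 0.534 CPM at 48 h. The 24 h libraries were spread more than 2-fold apart but all lay above those of 48 h. Its log2 fold change was -1.37 ± 0.31 (standard error; adjusted p = 0.00111). Pcdhgb7 (ENSMUSG00000104063) was at 2.79, 2.92 and 3.36 CPM at 24 h and 1.48, 1.69 and 1.38 CPM at 48 h. The times were well apart, and the fitted difference was -1.01 ± 0.18 on the log2 scale (adjusted p = 0.000122). Pcdhga5 (ENSMUSG00000103567) was at 1.553, 1.596 and 2.023 CPM at 24 h and 0.794, 1.16 and 0.851 CPM at 48 h. It too did not overlap, and its log2 fold change was -0.90 ± 0.25 (adjusted p = 0.0051).

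Pcdhga10 averaged 5.61 ± 0.42 CPM at 24 h and 3.23 ± 0.79 CPM at 48 h (SD, n = 3), and it fell by 0.80 on the log2 scale (adjusted p = 0.000287). Pcdhgb2 averaged 1.56 ± 0.23 and 0.849 ± 0.045 CPM and fell by 0.88 (adjusted p = 0.0059). Along the cluster Pcdhga4, Pcdhgb2 and Pcdhga5 are direct neighbours, as are Pcdhga10 and Pcdhgb7. Exons of Pcdhga10, Pcdhgb7, Pcdhga11 and Pcdhga12 overlap those of the opposite-strand gene Gm26672, which had 9 to 20 counts per library and was not called (adjusted p = 0.186). Pcdhga4, Pcdhgb2, Pcdhga5, Pcdhga10 and Pcdhgb7 stayed called in all 15 alternatives. The weakest calls were those of Pcdhga1 and Pcdhga12. Pcdhga1 (ENSMUSG00000103144), the first gene of the cluster, was at 9.06, 11.1 and 9.72 CPM at 24 h and 7.82, 7.86 and 9.25 CPM at 48 h, so 1 library of 48 h lay inside the 24 h range. The opposite-strand gene Gm37118, which overlaps its exons, had 0 to 2 counts per library. Its log2 fold change was -0.26 ± 0.10 (adjusted p = 0.0351). The call was lost with DESeq2 (adjusted p = 0.113) and without 24 h replicate 2 (0.177), 48 h replicate 1 (0.114) or 48 h replicate 2 (0.118). Pcdhga12 also overlapped, with 2.03, 3.25 and 3.64 CPM at 24 h and 1.57, 2.15 and 2.08 CPM at 48 h (log2 fold change -0.64 ± 0.21, adjusted p = 0.0159). Its call was lost without 24 h replicate 2 (0.0556), 24 h replicate 3 (0.111) or 48 h replicate 1 (0.0704).

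**Figure D4:**
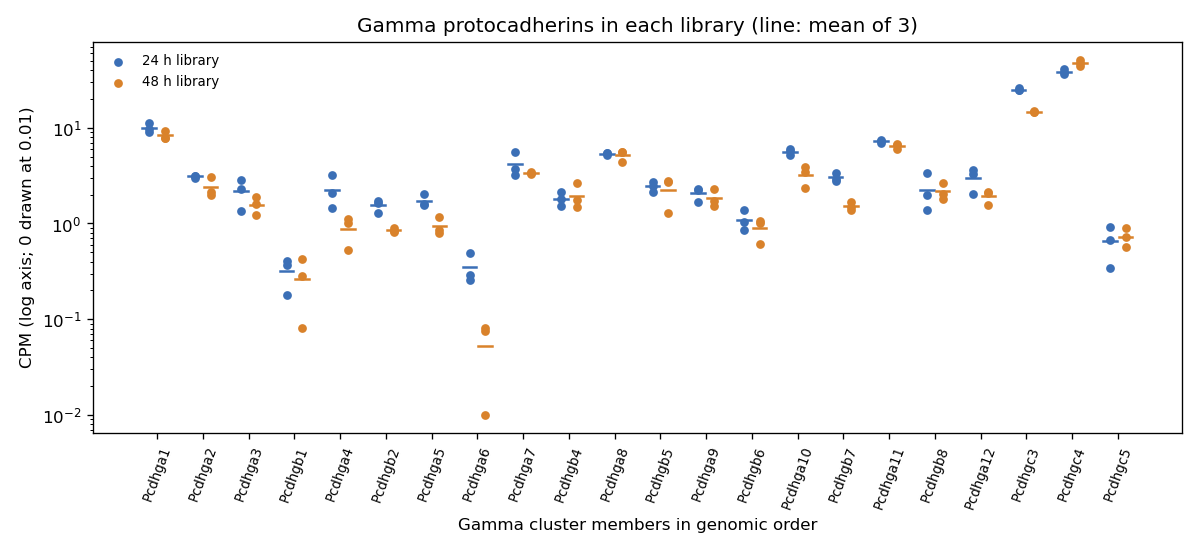
CPM of the 22 gamma members in each library on a log axis, in genomic order, with 24 h in blue and 48 h in orange and a line at the mean of 3. Pcdhgc3 and Pcdhgc4 stand above all others at both times, Pcdhgc4 is higher at 48 h, and Pcdhgc3, Pcdhga4, Pcdhgb2, Pcdhga5, Pcdhga10 and Pcdhgb7 are lower without overlap.

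The 11 gamma members that were tested and not called had log2 fold changes from -0.43 to 0.24, and their smallest adjusted p was 0.0756 (Pcdhga2). Pcdhga11 (ENSMUSG00000102742), the fourth member by mean count, was at 6.85, 7.25 and 7.45 CPM at 24 h and 6.70, 6.54 and 5.99 CPM at 48 h. Its values did not overlap, yet the difference of -0.17 ± 0.10 on the log2 scale was not called (adjusted p = 0.149). Pcdhga8 was at 5.34 ± 0.17 and 5.17 ± 0.68 CPM (SD, n = 3), a difference of -0.042 ± 0.12 on the log2 scale (adjusted p = 0.782). The opposite-strand gene Gm37165, with 0 to 4 counts per library, overlaps exons of Pcdhga7 and Pcdhga8. Pcdhgb8, which M21 lists as a polymorphic pseudogene, had the widest replicate spread of the tested gamma members with 20 to 200 mean counts. It was at 3.38, 1.99 and 1.38 CPM at 24 h and 1.81, 2.04 and 2.65 CPM at 48 h. Runs of 50 bases found in no other gene made up 34.7% to 68.1% of the 9 called gamma members and 48.6% to 64.5% of the 11 others.

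**Figure D5:**
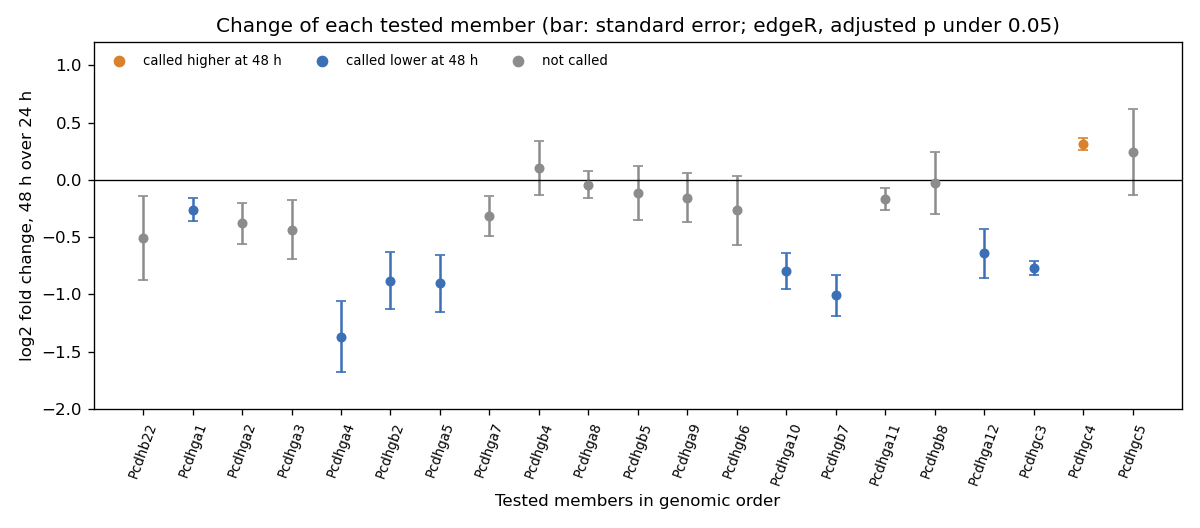
Log2 fold change of the 21 tested members, 48 h over 24 h, in genomic order with bars of 1 standard error, coloured by the edgeR call. Pcdhgc4 is the single member called higher, 8 members are called lower, and the largest fall is that of Pcdhga4 at -1.37.

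Replicates of the gamma members differed more than counting noise. For the 17 tested gamma members with 20 to 200 mean counts, the variance between replicates was a median of 2.07 times the mean count. For other tested genes in that range the median was 1.05 times for the 3208 with whole counts and 1.56 times for the 860 with fractional counts. The part that the division of reads had in this spread was not tested. The edgeR test draws each gene's variance towards a trend over all genes, so the adjusted p-values of these members may be too small. That too was not tested.

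Levels of different genes were compared per kb of the longest annotated transcript. At 24 h Pcdhgc4 had 7.65 ± 0.47 CPM per kb, Pcdhgc3 5.33 ± 0.14 and Pcdhga1 2.13 ± 0.23 (SD, n = 3). They were followed by Pcdhga11 with 1.51 ± 0.06, and by Pcdhga10 and Pcdhga8, which lay within their spread of each other at 1.18 ± 0.09 and 1.13 ± 0.04. At 48 h the first 4 kept this order with 9.48 ± 0.65, 3.12 ± 0.03, 1.77 ± 0.17 and 1.35 ± 0.08 CPM per kb. Pcdhga8 then followed with 1.09 ± 0.14, and Pcdhga7 and Pcdhga10 were next with 0.714 ± 0.018 and 0.682 ± 0.166, again within their spread. The untested gamma genes Pcdhgb1 and Pcdhga6 were lowest of the cluster at both times. Pcdhga6 had 5.09, 10.2 and 6.87 estimated counts at 24 h and 1.75, 0 and 1.69 at 48 h.

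Alpha members, which in neurons work with the gamma proteins at cell contacts, were close to silent. Of 14, 7 had no count in any library, which allows up to 3 counts, or 0.150 CPM in the shallowest library. Each library held counts for 2 to 4 alpha members, and no value exceeded 10.6 estimated counts. Pcdhac2, the last gene before the constant exons, had the most, with 10.3, 3.09 and 0 estimated counts at 24 h and 10.6, 7.03 and 2.67 at 48 h. Pcdha12 had 4.84, 4.99 and 6.26 estimated counts at 24 h and 0 in each library at 48 h. Its mean CPM at 24 h was 1.83-fold the 48 h limit of 3 counts per library, with the 24 h estimates taken as exact. Pcdha12 was too low to be tested, although a fit with no filter beyond 1 count called it lower. The opposite-strand gene Gm10545 overlaps exons of Pcdha12 and of Pcdha11, and had at most 1 count per library. The limit of 3 counts covers counting error only, not the division of shared reads. The symbol Pcdha11 stands for 2 rows, ENSMUSG00000007440 with no count and ENSMUSG00000102206 with counts in 3 libraries.

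Beta members were also near the detection limit. Of 22, 3 (Pcdhb1, Pcdhb5 and Pcdhb13) had no count in any library, and 9 to 13 had a count in a given library. Pcdhb22, the last gene of the cluster, was the single tested one, with 12, 10 and 17 counts at 24 h and 11, 9 and 8 at 48 h. In CPM it was at 0.601, 0.488 and 0.721 and then at 0.506, 0.411 and 0.361, with overlap (log2 fold change -0.51 ± 0.37, adjusted p = 0.241). Pcdhb14 followed with 10, 3 and 9 counts and 8, 8 and 4. Every other beta member had at most 5 counts in a library. Of the 36 alpha and beta members, 35 were too low to be tested.

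The non-clustered protocadherins, which are single genes that do not share exons, were set beside the clusters. Of 12 listed, 4 were tested and all 4 changed, 3 upward and 1 downward, where 62.8% of all genes tested were called. Pcdh1 was at 10.7 ± 0.82 CPM at 24 h and 62.6 ± 1.68 CPM at 48 h (SD, n = 3), and rose by 2.55 ± 0.05 on the log2 scale (standard error; adjusted p = 4.23e-16). Per kb this was 1.97 ± 0.15 and 11.6 ± 0.31 CPM, below Pcdhgc4 at 24 h and above it at 48 h. Pcdh8 rose by 2.74 and Pcdh18 by 2.56 on that scale, and Pcdh19 changed by -0.93. All 4 had whole counts in every library. Whether the 2 families differ was not tested.

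Among genes known to act on the clusters, all 12 of the CTCF and cohesin list were tested, 9 rose, 2 fell and 1 was not called, with a median log2 fold change of 0.13. Over all genes tested 30.9% rose and 31.9% fell. Ctcf, which binds the promoters and enhancers of the clusters, rose by 0.22 on the log2 scale. Of the cohesin subunit genes, Stag2 rose by 0.84 and Rad21 changed by -0.29. The calls of Smc1a and Zfp143 were lost in at least 1 alternative. Of the 13 genes for DNA methylation and silencing, 11 rose and 2 fell, with a median of 0.32, against the same 30.9% and 31.9% of all genes. Dnmt3b, which methylates promoters of the clusters, rose by 3.35 on the log2 scale, and Smchd1, a silencer of the clusters, rose by 0.37. The histone methyltransferase gene Setdb1 changed by -0.30, and Tet2, which encodes an enzyme that oxidises methylated cytosine, by -0.97. Tet1 and Tet3, which encode enzymes of the same kind, rose by 0.43 and 0.21. Tet1 averaged 1000 CPM at 24 h and 1351 CPM at 48 h, and Tet2 266 and 136 CPM. Of the genes named here, Setdb1 and Uhrf1 had fractional counts in 6 libraries and Dnmt3b in 3. The calls of Dnmt1 and Uhrf1 were lost in 1 alternative each. The part of these genes in the protocadherin levels was not tested.

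Of the 17 genes for intracellular partners and proteases, 3 rose, 11 fell and 3 were not called, with a median log2 fold change of -0.15, where 30.9% of all genes tested rose and 31.9% fell. The kinase gene Ptk2, whose product is bound by alpha and gamma tails, rose by 0.32 on the log2 scale. Abi2, Abi1 and Cyfip1, which encode parts of the WAVE actin complex, changed by 0.45, -0.33 and -0.48, and Adam10, the protease that sheds gamma proteins, by -0.39. The calls of Fyn, Ptk2b, Cyfip2 and Psen2 were lost in at least 1 alternative.

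Genes next to the members on the chromosome were called about as often as other genes. Taf7, a subunit gene of the general transcription machinery that lies between the beta and gamma clusters, fell by 0.12 ± 0.02 on the log2 scale (standard error; adjusted p = 0.000484). The non-coding gene 3222401L13Rik, which ends just before Pcdhga1, fell by 0.53 ± 0.11 (adjusted p = 0.000373). Diaph1, a regulator of actin that follows the gamma cluster on the opposite strand, rose by 0.19 ± 0.02 (adjusted p = 3.38e-07). Gm38182, a transcript that shares exons with all 22 gamma members, had 0, 2.35 and 15.5 estimated counts at 24 h and 12.7, 12.5 and 18.7 at 48 h, and was not called (adjusted p = 0.0959), though 3 alternatives called it higher. Of the 19 neighbouring genes tested, 11 were called, a share near the 62.8% of all genes, and 5 of these lost the call in at least 1 alternative.

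The libraries held 19574969 to 23133148 estimated counts. Each pair of replicates differed by more than counting noise (chi-square of 1.80 to 2.26 per degree of freedom). All 8 embryonic stem cell markers were present, with summed levels of 4021 to 4097 CPM at 24 h and 3356 to 3451 CPM at 48 h. Of these 4 rose and 4 fell, with log2 fold changes from -1.99 (Nanog) to 1.55 (Lin28a). For this and the other marker lists, the background is that 30.9% of all genes tested rose and 31.9% fell. The 10 neural markers summed to 139.5 to 149.4 CPM and 164.4 to 178.5 CPM. Of the 9 tested, 5 rose (Sox1, Pax6, Map2, Elavl3 and Neurod1), 2 fell (Tubb3 and Nes) and 2 were not called. Tubb3, the most abundant of them, averaged 78.2 CPM at 24 h and 54.3 CPM at 48 h. Dcx, which marks young neurons, had 0 counts in each 24 h library and 2 in each 48 h library and was not tested. The 8 fibroblast markers summed to 2.54 to 3.35 CPM and 2.53 to 3.88 CPM, with Lum and Postn at 0. Of the 3 tested, Dcn was called higher, Col1a1 was called lower and 1 was not called. Dcn had 0 counts at 24 h and 23 to 32 at 48 h. Col1a1 had 16, 21 and 30 counts at 24 h and 4, 9 and 7 at 48 h. The 6 primitive endoderm markers summed to 9.31 to 11.1 CPM and 5.58 to 6.31 CPM. For the 6 trophoblast markers the sums were 7.28 to 7.84 CPM and 2.17 to 2.39 CPM. Single genes carried much of both falls. Gata4 averaged 5.84 CPM at 24 h and 2.25 CPM at 48 h, and Tfap2c 6.60 and 1.55 CPM. They were the only genes called in these lists, where 2 and 1 others were tested and not called. The part of other cell types in the protocadherin levels was not tested.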

How the data were processed

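The authors deposited a table of estimated counts per gene, not scaled for depth or length, with 1 column per library. The submitters' processing notes name cutadapt 1.9.1, STAR 2.5.2, RSEM 1.3.0 and GRCm38. RSEM shares out ambiguous reads among genes by likelihood. The annotation and the use of strand are not given in the sources used here, so reads of overlapping exons on opposite strands may be mixed. Symbols, exons and transcripts came from GENCODE M21 (51633 of 51912 identifiers matched).

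Estimated counts were rounded, filtered with filterByExpr (minimum count 10), scaled by TMM and tested for 48 h against 24 h with edgeR 4.0.16 in R 4.3.3 (glmQLFit, glmQLFTest, two-sided, Benjamini-Hochberg over 14889 genes, threshold 0.05). Standard errors are the fold change divided by the square root of F. CPM used unrounded counts. The test was checked on simulated whole counts with the dispersion trend of all genes. That simulation did not model the division of shared reads, so it does not bear on it. Alternatives used DESeq2 1.42.0 and limma 3.58.1 voom among others. Values in every library are given for tested members among the 4 highest mean counts or the 3 largest changes of their cluster, and for some others chosen after their values were seen. Sums by gamma type, shares, levels per kb, replicate spread and the check for whole sums were also devised after values were seen. The 24 genes outside the clusters followed singly through the alternatives were chosen from 65 with their stability known. Members and lists were chosen with earlier results of these data known. Sequence uniqueness used runs of 50 bases of M21 transcripts. No sequences are printed.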

Additional observations from a re-analysis of the deposited data

How the results depend on the processing

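Over 15 alternatives (RLE and library-size scaling, 2 other filters, DESeq2, limma voom, unrounded counts, the replicate block, a threshold of 0.01 and leaving out each library), 1 member was called higher each time and between 6 and 10 lower. The count of all genes called was 7810 to 9792. Pcdhgc3, Pcdhgc4, Pcdhga4, Pcdhga5, Pcdhga10, Pcdhgb2 and Pcdhgb7 were called in all of them. No alternative changed how RSEM had divided shared reads, so the effect of that division on these calls was not tested. At a threshold of 0.01 Pcdhga1 and Pcdhga12 lost their calls, and with no filter Pcdha12 and Pcdhga6 were added as lower. Pcdhga2 was called with library size as the only scaling (-0.44, adjusted p = 0.0418) and without 48 h replicate 2 (-0.60, 0.0103), Pcdhga3 without 24 h replicate 3 (-0.70, 0.0189) and Pcdhga7 without 24 h replicate 2 (-0.47, 0.0288). With the replicate block the counts were 9235, 1 higher and 8 lower, with no member's call changed. Deviations of same-numbered libraries correlated at -0.05, -0.04 and -0.01, so no shared deviation was seen between them. This does not tell how the replicates were made, which the labels do not say. Across the tested members' fold changes, 291 values were like the first fit in direction and call. A call disappeared in 9, appeared in 4, and the sign turned in 9 of members without a call. Pcdhgb8 (-0.031) was 0.067 with limma voom. Without 1 library it ranged from -0.31 to 0.38, Pcdhgb4 from -0.17 to 0.27, Pcdhgb5 from -0.28 to 0.16, Pcdhga8 from -0.10 to 0.067 and Pcdhgc5 from -0.088 to 0.56.

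The gamma sum's log2 ratio of -0.18 was -0.24 with library size as the only scaling and -0.47 without Pcdhgc4. Without 1 library it ranged from -0.21 to -0.16, the beta sum from -0.41 to -0.15 and the alpha sum from -0.68 to -0.03, so single libraries carry the alpha value. The alpha sum was -1.04 without Pcdhac2. Of the members passing the filter, 20 were fractional, against 31 of all. The sum over tested alpha members was not run, since none was tested. Depth limits the alpha and beta clusters, where 35 of 36 members were not tested. Of the 65 tested list genes and neighbours 53 were called, 40 kept the call in all alternatives that tested them (Pcdh18 was not tested with at least 10 counts in every library) and 13 lost it in at least 1. The 24 followed singly were picked after this was known: all 23 called ones are among the 40, while 13 of the other 30 called ones lost it, so the stability of the picked genes is a product of the choice.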
